A study of Mus musculus with 10 samples.

Results

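The genes of glycolysis, of lactate production and export, and of pyruvate entry into mitochondria were followed from glucose uptake to pyruvate dehydrogenase in Tg-neu mammary tumors. The list held 35 genes, and each was read by 1 probe set, the one with the highest mean over the 10 arrays among those annotated to that gene alone. Of the 35 members, 31 had such a probe set among the 18193 genes measured. Gapdh was read by array control probe sets alone, and Gpi1, Pfkfb1 and Eno1 were not analysed here because they had no probe set of their own.

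The tumors had arisen spontaneously in female FVB/N-Tg(MMTVneu) mice, in which the MMTV promoter, active mainly in mammary epithelium, drives the rat neu oncogene. From the first palpable tumor, mice received i.p. lovastatin (Lov; 10 mg/kg) or ethanol vehicle (Vhcl), 3 times a week for 6 weeks. One RNA sample per tumor, all cell types together, was read on an Affymetrix mouse whole-genome array, for 5 Vhcl tumors and 5 Lov tumors. The Vhcl tumors were AB11, A59, A54, A49 and A45, and the Lov tumors AB10, A55, A50, A48 and A19. The control tumors are labelled vehicle as their treatment, while a free-text label calls them not treated. Values are log2 signals as the authors deposited them, and lists of 5 follow the numbers of the tumors upward, A before AB. Of the luminal epithelial markers, Krt8, Krt18 and Epcam had mean log2 signals of 11.93, 12.26 and 12.40 over the 10 tumors and Krt19 of 5.31, where the median of an array was 4.97 to 5.05. Of 9 such markers, 0 differed between the groups at an unadjusted p under 0.05 in limma.

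Glycolysis splits glucose into pyruvate in the cytosol and yields ATP without oxygen. Pyruvate is then reduced to lactate by lactate dehydrogenase and exported with a proton by monocarboxylate transporters, or it is oxidized in mitochondria by pyruvate dehydrogenase, an enzyme that pyruvate dehydrogenase kinases switch off. Tumors commonly run glycolysis at a high rate even where oxygen is present, and many of these genes are known targets of hypoxia-inducible factor 1 (HIF-1) and Myc. Lovastatin blocks HMG-CoA reductase, the enzyme that controls the rate of the mevalonate pathway.

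Many genes of the pathway were read at a lower level in Lov tumors. Of 31 tested members, 13 were lower at an unadjusted p under 0.05 in limma and 0 were higher, that is 41.9% lower, where 2.75% of all 18193 genes were lower and 3.5% were higher by the same rule. Among these 13, the largest differences were in Slc16a1, which carries lactate across the plasma membrane, in Pfkfb3, which makes the activator of phosphofructokinase, and in Tpi1, Hk2, Pfkp and Pgam1, enzymes of the pathway itself. The median difference over the members was -0.34 on the log2 scale, with 24 members below 0 and 7 above, while the median over all genes was 0.00. The 13 differences ran from 1.23-fold lower for Slc2a3 to 2.81-fold lower for Slc16a1. Less RNA per cell and fewer cells of the kind that makes it cannot be told apart in whole tumors.

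The evidence for any single member was limited. None of the 31 passed Benjamini-Hochberg adjustment over all probe sets in limma, with adjusted p between 0.919 and 0.998. The share of genes at an adjusted p under 0.05 was 0% over the whole array as well. Without moderation of the variances, 10 members were lower at an unadjusted p under 0.05. The exact permutation test over tumors gave 10 members under 0.05, the exceptions being Hk2, Aldoa and Pdk3. The share of all genes under 0.05 was not computed for either test. Both used the same tumors, so their counts are not separate support. In no member were all Lov tumors below or above all Vhcl tumors, a pattern held by 0.346% of all genes in each direction. The p-values set each group difference against the spread between these tumors. Nothing in the labels shows that each tumor came from a separate mouse. If tumors of a group shared a mouse, the p-values could be too small.

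**Figure D1:**
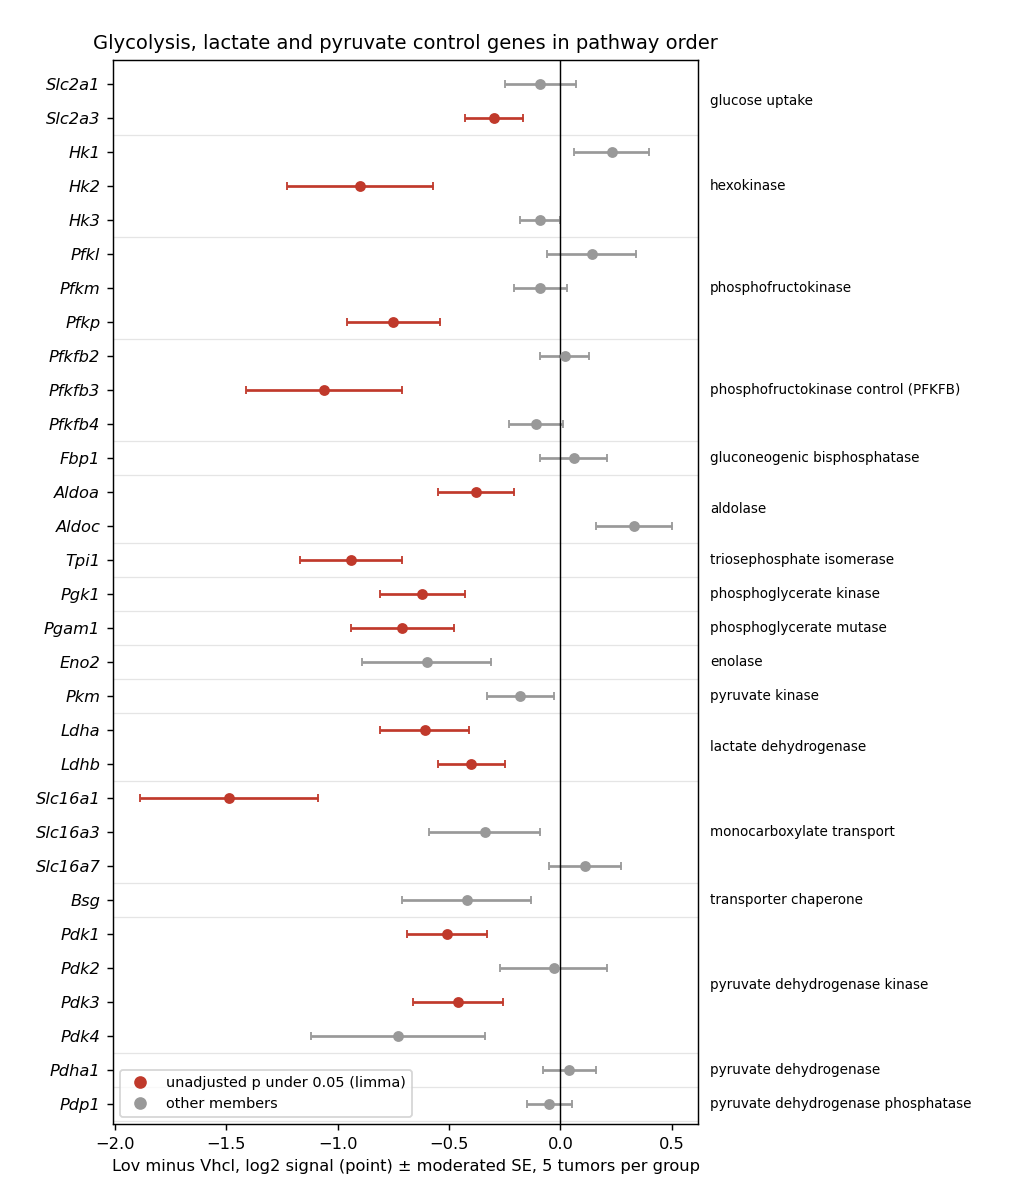
Lov minus Vhcl difference in log2 signal (x axis; point, with moderated SE as bar; 5 tumors per group) for the 31 tested members, listed from glucose uptake to pyruvate dehydrogenase. The 13 red points have an unadjusted limma p under 0.05 and all lie left of 0, from -0.30 for Slc2a3 to -1.49 for Slc16a1.

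Because so many members were lower together, the sequence before their start sites was read for the letters that HIF-1 and Myc are known to bind. RefSeq promoter windows (build GRCm38.p6) were at hand for 31 of the 35 members, and the 250 bases before the start were searched on both strands for ACGTG and GCGTG, the core letters of the hypoxia response element, and for CACGTG, an E-box that holds ACGTG on both strands. 4 windows are shown because they span the range seen among members lower in Lov tumors. They are Ldha (chr7:46845554-46845803 on the plus strand), Pgk1 (chrX:106186850-106187099 on the plus strand), Slc16a1 (chr3:104638414-104638663 on the plus strand) and Tpi1 (chr6:124814159-124814408 on the minus strand). Each is written 5′ to 3′ on the strand of its gene and ends at the base before the start, with the searched letters in capitals.
Ldha: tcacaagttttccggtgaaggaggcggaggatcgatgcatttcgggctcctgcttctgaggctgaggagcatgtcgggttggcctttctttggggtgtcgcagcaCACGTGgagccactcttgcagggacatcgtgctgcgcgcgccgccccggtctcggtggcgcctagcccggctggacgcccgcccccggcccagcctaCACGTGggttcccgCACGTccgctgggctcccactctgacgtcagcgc
Pgk1: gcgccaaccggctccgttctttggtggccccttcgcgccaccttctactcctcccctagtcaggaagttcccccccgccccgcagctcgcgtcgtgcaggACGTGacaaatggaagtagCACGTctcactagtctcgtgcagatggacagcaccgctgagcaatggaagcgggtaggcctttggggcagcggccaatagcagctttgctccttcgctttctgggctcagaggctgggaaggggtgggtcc
Slc16a1: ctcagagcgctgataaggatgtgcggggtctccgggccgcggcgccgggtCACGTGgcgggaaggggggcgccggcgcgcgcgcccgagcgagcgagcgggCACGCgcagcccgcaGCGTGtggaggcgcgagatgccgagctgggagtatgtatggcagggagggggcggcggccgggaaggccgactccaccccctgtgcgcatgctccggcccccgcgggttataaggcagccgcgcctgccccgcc
Tpi1: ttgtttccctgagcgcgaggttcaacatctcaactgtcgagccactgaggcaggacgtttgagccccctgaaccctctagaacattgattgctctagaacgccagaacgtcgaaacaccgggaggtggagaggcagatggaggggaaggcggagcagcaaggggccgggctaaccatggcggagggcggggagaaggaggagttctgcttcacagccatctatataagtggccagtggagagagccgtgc
The Ldha stretch held 5 matches to ACGTG, most of them within its 2 E-boxes, and the Pgk1 stretch held 2 in opposite orientations. The Slc16a1 stretch held 1 E-box and 2 matches to GCGTG. The Tpi1 stretch held 0 matches, although Tpi1 had the lowest limma p of the members. With the first listed window per gene, ACGTG stood in 7 of 12 members lower in Lov tumors (58.3%), in 6 of 15 other tested members (40%) and in 16.6% of 27025 genes. For GCGTG the shares were 50%, 46.7% and 28.2%, and for CACGTG 16.7%, 20% and 6.05%. Promoters of the lower members were rich in GC (median 64%, against 52% over all genes). Among genes whose stretch held 60 to 65% GC, ACGTG stood in 23.7% and GCGTG in 48.6%. These are matches of letters, and binding was not measured.

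At the entry of glucose, differences were small. Slc2a1 (GLUT1), the basal glucose transporter of most cells, differed by -0.09 (exact permutation p = 0.675). Its signal ran from 9.84 to 10.19 in Lov tumors and from 9.41 to 10.30 in Vhcl tumors, where A45 at 9.41 lay apart from the others, and the other 2 probe sets of the gene differed by -0.14 and -0.05. Slc2a3 (GLUT3), a high-affinity glucose transporter, read 4.76, 4.81, 4.74, 5.01 and 5.01 in the Vhcl tumors and 4.68, 4.61, 4.19, 4.50 and 4.85 in the Lov tumors, a difference of -0.30 ± 0.13 (SE, exact permutation p = 0.0397). Lov AB10 lay within the Vhcl range. The other 3 probe sets of Slc2a3 differed by 0.09, -0.16 and -0.05, and leaving out any of A50, A55, A59 or AB11 moved the p past 0.05 (differences -0.37 to -0.21).

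Hexokinase traps glucose in the cell as glucose 6-phosphate. The isoform that many tumors induce, Hk2, read 7.78, 8.31, 7.50, 8.74 and 7.06 in the Vhcl tumors and 7.91, 7.13, 6.55, 6.66 and 6.66 in the Lov tumors. 3 Lov tumors lay below every Vhcl tumor, while Lov A19 was as high as the middle of the Vhcl group. The group values were 7.88 ± 0.66 against 6.98 ± 0.57 (mean ± SD, n = 5 each), a difference of -0.90 ± 0.33 (SE, exact permutation p = 0.0714), or 1.86-fold lower. Hk1, the widespread housekeeping hexokinase, differed by 0.23 (exact permutation p = 0.246), and Hk3 by -0.09 (exact permutation p = 0.238). The within-tumor log2 ratio of Hk1 to Hk2 was 2.86, 1.79, 3.04, 1.16 and 3.48 in the Vhcl tumors and 2.22, 3.60, 4.33, 3.94 and 3.87 in the Lov tumors. It differed between the groups by 1.13 ± 0.56 (SE), exact permutation p = 0.0873, so a difference between these isoforms in response was not established.

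Phosphofructokinase makes the committed step of glycolysis. The platelet isoform Pfkp read 9.66, 9.35, 9.68, 10.27 and 9.99 in the Vhcl tumors and 9.61, 9.24, 8.92, 8.80 and 8.64 in the Lov tumors. All Lov tumors but A19 lay below every Vhcl tumor. The difference was -0.75 ± 0.21 (SE, exact permutation p = 0.0159), from 9.79 ± 0.35 against 9.04 ± 0.39 (mean ± SD, n = 5 each). The liver isoform Pfkl differed by 0.14 (exact permutation p = 0.587) and the muscle isoform Pfkm by -0.09 (exact permutation p = 0.508). Relative to both of them, Pfkp read lower on average in Lov tumors. Neither pair passed Benjamini-Hochberg adjustment over the 21 pairs (adjusted exact permutation p = 0.139 for both). The log2 ratio of Pfkl to Pfkp was 0.94, 1.68, 1.57, 0.00 and 1.02 in the Vhcl tumors and 1.09, 2.06, 2.32, 2.27 and 1.89 in the Lov tumors, a difference of 0.88 ± 0.37 (SE), exact permutation p = 0.0397. For Pfkm to Pfkp the difference was 0.66 ± 0.25 (SE), exact permutation p = 0.0397. In both pairs the groups overlapped. With all probe sets of each gene averaged, the differences were 0.46 and 0.31 (exact permutation p = 0.198 and 0.143). Of the other Pfkp probe sets, 1 differed by -0.49 (exact permutation p = 0.214) and 1, with a mean signal of 5.05, by 0.05.

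The PFKFB enzymes make and break fructose 2,6-bisphosphate, the strongest activator of phosphofructokinase. Pfkfb3, the form with the highest kinase activity, read 5.98, 7.34, 6.11, 7.11 and 5.89 in the Vhcl tumors and 6.44, 5.59, 4.84, 5.09 and 5.17 in the Lov tumors. 4 Lov tumors lay below every Vhcl tumor, and Lov A19 lay above 3 Vhcl tumors. The difference was -1.06 ± 0.35 (SE, exact permutation p = 0.0476), or 2.08-fold. Its second probe set (mean signal 5.09) differed by 0.02, so the difference rests on 1 of 2 probe sets. Pfkfb2, the heart form, differed by 0.02 (exact permutation p = 0.921) and Pfkfb4 by -0.11 (exact permutation p = 0.444). A second Pfkfb2 probe set (mean signal 5.41) differed by 0.21 (exact permutation p = 0.0397), and its dimmer ones by 0.10 and 0.09. The within-tumor log2 ratio of Pfkfb2 to Pfkfb3 differed between the groups by 1.08 ± 0.40 (SE), exact permutation p = 0.0397. For Pfkfb3 to Pfkfb4 it differed by -0.95 ± 0.47 (SE), exact permutation p = 0.0873. Fbp1, the gluconeogenic phosphatase that opposes phosphofructokinase, differed by 0.06 (exact permutation p = 0.738).

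**Figure D2:**
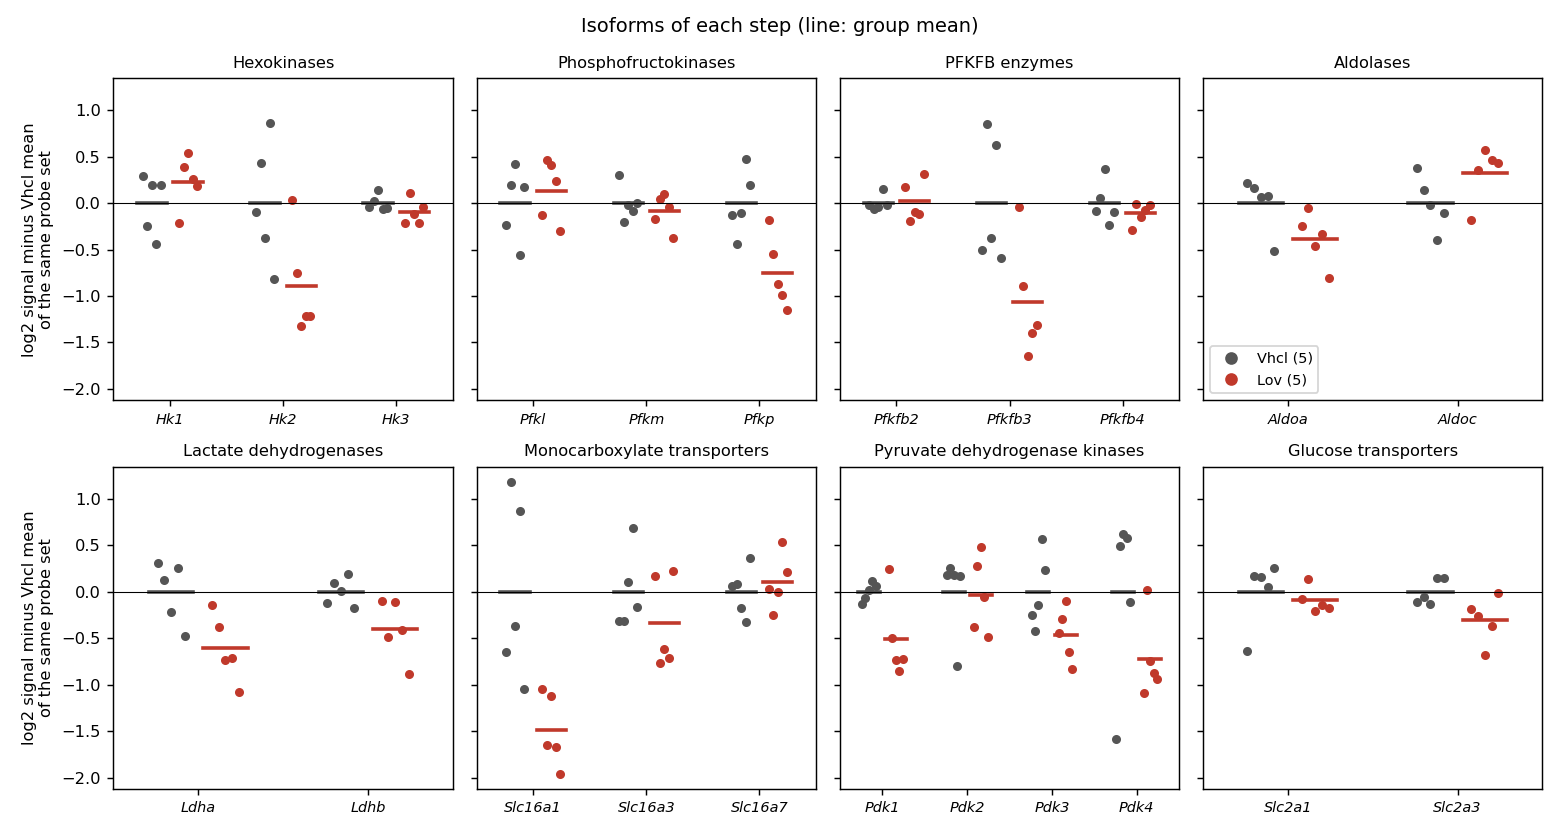
Log2 signal of each tumor minus the Vhcl mean of the same probe set (y axis) for isoforms of 8 families; grey, 5 Vhcl tumors; red, 5 Lov tumors; lines, group means. The red means of Hk2, Pfkp, Pfkfb3 and Slc16a1 lie at -0.90, -0.75, -1.06 and -1.49, while those of Hk1, Pfkl, Pfkfb2 and Slc16a7 lie at 0.23, 0.14, 0.02 and 0.11.

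Aldolase splits fructose 1,6-bisphosphate into a pair of triose phosphates, and its forms among the members were Aldoa, which was lower in Lov tumors, and Aldoc, which did not pass the test. Aldoa, the muscle and general form, read 12.58, 12.53, 12.43, 12.44 and 11.85 in the Vhcl tumors and 12.12, 12.31, 11.90, 12.03 and 11.56 in the Lov tumors, a difference of -0.38 ± 0.17 (SE, exact permutation p = 0.0873). Vhcl AB11 at 11.85 stood apart below the other Vhcl tumors (12.43 to 12.58), and only Lov AB10 lay under it. The 5 Aldoa probe sets differed by -0.38 to -0.55, and each had a limma p under 0.05. Aldoc, the brain form, read 13.36, 13.12, 12.96, 12.58 and 12.87 in the Vhcl tumors and 12.80, 13.34, 13.55, 13.44 and 13.41 in the Lov tumors, a difference of 0.33 ± 0.17 (SE, exact permutation p = 0.119). 4 Lov tumors were at 13.34 or more and Lov A19 was at 12.80. A second Aldoc probe set was higher by 0.82 ± 0.32 (SE, exact permutation p = 0.0476). Within tumors the log2 ratio of Aldoa to Aldoc was -0.78, -0.59, -0.53, -0.14 and -1.02 in the Vhcl tumors and -0.68, -1.03, -1.65, -1.41 and -1.85 in the Lov tumors. It differed between the groups by -0.71 ± 0.26 (SE), exact permutation p = 0.0317, with the groups overlapping.

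Between triose phosphate and pyruvate, Tpi1, Pgk1 and Pgam1 were lower, and Eno2 and Pkm did not pass the test. Tpi1, which interconverts the triose phosphates and has no isoform among the members, read 12.06, 12.30, 11.72, 12.16 and 11.41 in the Vhcl tumors and 11.64, 11.10, 11.06, 10.77 and 10.37 in the Lov tumors. All Lov tumors but A19 lay below every Vhcl tumor, and A19 lay below all but AB11. The group values were 11.93 ± 0.36 against 10.99 ± 0.47 (mean ± SD, n = 5 each), and the difference of -0.94 ± 0.23 (SE, exact permutation p = 0.0159) had the lowest limma p of the members. The 3 Tpi1 probe sets gave -0.94, -0.89 and -0.95.

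Gapdh, which oxidizes glyceraldehyde 3-phosphate, is read by 3 control probe sets placed along its transcript, and these stayed out of the limma fit. The 3′ set read 13.13, 13.24, 12.76, 12.97 and 12.49 in the Vhcl tumors and 12.51, 12.40, 12.44, 12.26 and 11.83 in the Lov tumors. 4 Lov tumors lay below every Vhcl tumor, and A19 passed only AB11. The differences were -0.63 at the 3′ end (exact permutation p = 0.0159), -0.60 in the middle (exact permutation p = 0.0238) and -0.52 at the 5′ end (exact permutation p = 0.0317). The smallest p that the 252 assignments of 5 among 10 tumors allow is 0.00794. Gapdh 3′ minus 5′ signal, a sign of RNA integrity, was 0.16 to 0.57 in Vhcl and 0.17 to 0.32 in Lov tumors, and with it as a covariate 8 of the 13 lower members had an unadjusted p under 0.05 in limma. Slc2a3, Hk2, Ldhb, Pdk1 and Pdk3 did not, and Bsg, not among the 13, did. Beta-actin 3′ minus 5′ signal was 0.8 to 1.35 in Vhcl and 0.67 to 1.07 in Lov tumors. With beta-actin as the covariate, 9 of the 13 had such a p. Vhcl A59, the highest Vhcl tumor in 8 of the 13, had the highest value of both (0.57 for Gapdh, 1.35 for beta-actin).

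Pgk1, the first ATP-yielding step, read 12.16, 11.88, 12.10, 12.40 and 11.83 in the Vhcl tumors and 12.05, 11.61, 11.48, 11.17 and 10.97 in the Lov tumors. 4 Lov tumors lay below every Vhcl tumor, and A19 was within their range. The difference was -0.62 ± 0.19 (SE, exact permutation p = 0.0238), and the other 2 probe sets gave -0.44 and -0.50. Pgam1, the mutase that follows, read 9.76, 9.98, 9.74, 10.22 and 9.59 in the Vhcl tumors and 9.78, 9.32, 9.30, 9.02 and 8.30 in the Lov tumors. The same 4 Lov tumors lay below the Vhcl range, and AB10 lay far below the other Lov tumors at 8.30. The difference was -0.71 ± 0.23 (SE, exact permutation p = 0.0317), or -0.50 without AB10. Eno2, the neuronal enolase and the 1 enolase measured among the members, read 4.49, 3.79, 4.20, 4.58 and 3.38 in the Vhcl tumors and 4.50, 3.30, 3.14, 3.32 and 3.18 in the Lov tumors. Eno3, outside the members, differed by -0.81 (exact permutation p = 0.246). Lov A19 at 4.50 was set apart from the other Lov tumors (3.14 to 3.32), which lay below every Vhcl tumor. Over all tumors the difference was -0.60 ± 0.29 (SE, exact permutation p = 0.103), and without A19 it was -0.85, with an unadjusted p under 0.05 in limma. Pkm, the pyruvate kinase of most tissues and tumors, read 11.98, 11.70, 11.78, 11.93 and 11.52 in the Vhcl tumors and 11.20, 11.74, 11.92, 11.81 and 11.32 in the Lov tumors. These groups overlapped widely, with a difference of -0.18 ± 0.15 (SE, exact permutation p = 0.302), and the splice forms of Pkm are not told apart by this probe set's annotation.

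**Figure D3:**
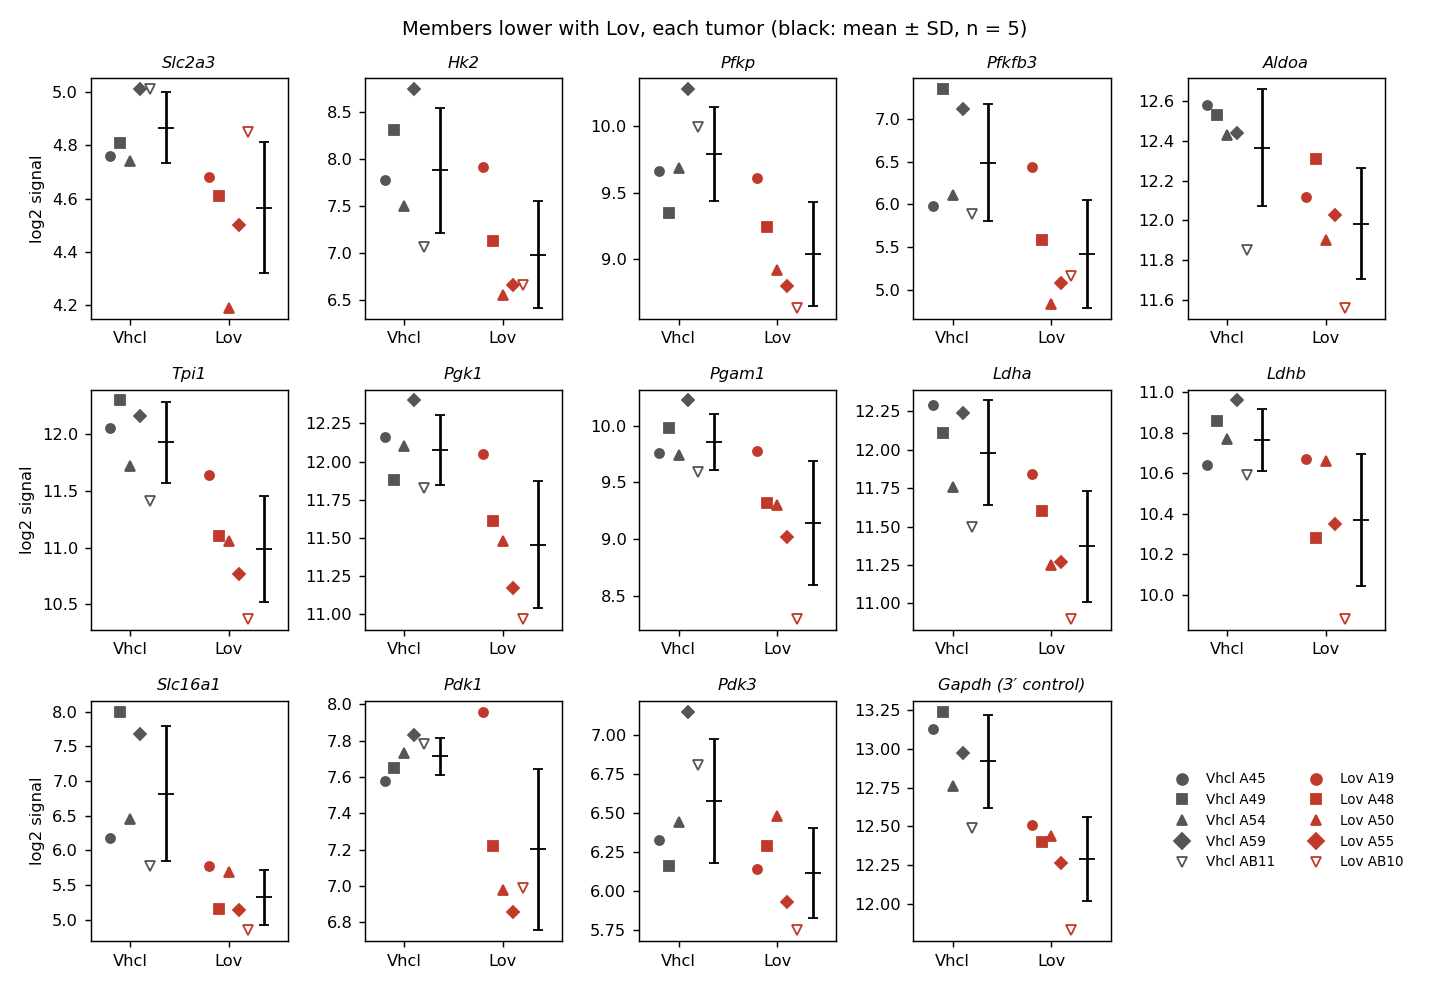
Log2 signal (y axis, scaled per gene) of each tumor for the 13 members lower in Lov tumors and for the 3′ Gapdh control probe set; open triangles are tumors AB11 and AB10, black bars mean ± SD of 5. Lov A19 (red circle) is the highest Lov tumor in 10 of the 13, and Lov AB10 the lowest in 9.

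Both subunits of lactate dehydrogenase and 1 of 3 monocarboxylate transporters were lower as well. Ldha, the muscle subunit, which favors lactate formation, read 12.29, 12.11, 11.76, 12.24 and 11.50 in the Vhcl tumors and 11.84, 11.60, 11.25, 11.27 and 10.90 in the Lov tumors. 3 Lov tumors lay below every Vhcl tumor, A48 lay above AB11 alone, and A19 above AB11 and A54. The difference was -0.61 ± 0.20 (SE, exact permutation p = 0.0397), from 11.98 ± 0.34 against 11.37 ± 0.36 (mean ± SD, n = 5 each). Ldhb, the heart subunit, which favors pyruvate, read 10.64, 10.86, 10.77, 10.96 and 10.59 in the Vhcl tumors and 10.67, 10.28, 10.66, 10.35 and 9.88 in the Lov tumors, a difference of -0.40 ± 0.15 (SE, exact permutation p = 0.0476). Lov A19 and A50 lay within the Vhcl range. The other 3 Ldhb probe sets gave -0.34 to -0.35, each with a limma p under 0.05, and without A59 the Ldhb difference was -0.35 and no longer had an unadjusted p under 0.05 in limma. Both subunits were thus lower, and their log2 ratio differed by only -0.21 ± 0.18 (SE), exact permutation p = 0.302.

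Slc16a1 (MCT1), which carries lactate and pyruvate across the plasma membrane in either direction, had the largest difference of the list. It read 6.17, 8.0, 6.45, 7.68 and 5.77 in the Vhcl tumors and 5.77, 5.16, 5.69, 5.14 and 4.85 in the Lov tumors. The Vhcl tumors spread widely, with A49 and A59 far above the rest, and the lowest Vhcl tumor (AB11) equalled the highest Lov tumor (A19). The group values were 6.81 ± 0.97 against 5.32 ± 0.39 (mean ± SD, n = 5 each), the difference -1.49 ± 0.40 (SE, exact permutation p = 0.0159), or 2.81-fold. A second probe set, with a mean signal of 3.45, differed by 0.02. Slc16a3 (MCT4), the exporter typical of glycolytic cells, differed by -0.34 (exact permutation p = 0.31), and Slc16a7 (MCT2), a high-affinity importer, by 0.11 (exact permutation p = 0.563). The within-tumor log2 ratio of Slc16a1 to Slc16a3 was 1.22, 3.05, 1.08, 1.73 and 0.67 in the Vhcl tumors and 0.33, 0.66, 1.04, 0.59 and -0.64 in the Lov tumors. It differed between the groups by -1.15 ± 0.50 (SE), exact permutation p = 0.0159. For Slc16a1 to Slc16a7 the difference was -1.60 ± 0.57 (SE), exact permutation p = 0.0317. Slc16a3 and Slc16a7 had mean signals of 5.09 and 4.94, near the array median, which limits what these ratios show about them. Bsg (basigin), the chaperone that brings MCT1 and MCT4 to the membrane, read 11.96, 11.47, 11.63, 10.33 and 11.10 in the Vhcl tumors and 11.08, 11.26, 11.06, 10.81 and 10.20 in the Lov tumors. The Vhcl tumor A59 was the lowest of its group at 10.33. The Bsg difference was -0.42 ± 0.29 (SE, exact permutation p = 0.262), and without A59 it was -0.66, with an unadjusted p under 0.05 in limma.

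At the branch into mitochondria, 2 of 4 kinases were lower, and pyruvate dehydrogenase itself differed by 0.04. Pdk1, a pyruvate dehydrogenase kinase known as a HIF-1 target, read 7.58, 7.65, 7.73, 7.83 and 7.78 in the Vhcl tumors and 7.96, 7.22, 6.98, 6.86 and 6.99 in the Lov tumors. 4 Lov tumors lay below every Vhcl tumor, and Lov A19 lay above them all. The difference was -0.51 ± 0.18 (SE, exact permutation p = 0.0476). Of the other 3 probe sets, those of higher signal gave -0.40 and -0.49, and that with a mean signal of 4.28 gave -0.01. Pdk3 read 6.33, 6.16, 6.44, 7.15 and 6.81 in the Vhcl tumors and 6.14, 6.29, 6.48, 5.93 and 5.75 in the Lov tumors, a difference of -0.46 ± 0.20 (SE, exact permutation p = 0.0794), and its p passed 0.05 when any of A19, A55, AB10, A59 or AB11 was left out (-0.56 to -0.32 over all 10 omissions). Pdk4, the kinase induced by fasting, differed by -0.73 (exact permutation p = 0.183) with Vhcl A45 at 4.15 and the other Vhcl tumors at 5.62 to 6.35. Without A45 the Pdk4 difference was -1.12, with an unadjusted p under 0.05 in limma. Pdk2, the most widespread kinase, differed by -0.03 (exact permutation p = 0.944). Pdha1, the catalytic alpha subunit of pyruvate dehydrogenase, read 10.05, 9.93, 10.15, 10.11 and 10.12 in the Vhcl tumors and 9.73, 10.36, 10.32, 10.16 and 9.99 in the Lov tumors, a difference of 0.04 ± 0.12 (SE, exact permutation p = 0.778). Pdp1, the phosphatase that reactivates it, differed by -0.05 (exact permutation p = 0.571). None of the 6 pairs of Pdk isoforms had an exact permutation p under 0.05 for a difference in response.

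Over the families, 21 pairs of isoforms were compared in this way. Of these, 6 had an exact permutation p under 0.05, namely Pfkl and Pfkm with Pfkp, Pfkfb2 with Pfkfb3, Aldoa with Aldoc, and Slc16a1 with Slc16a3 and Slc16a7. After Benjamini-Hochberg adjustment over the 21 pairs the lowest exact permutation p was 0.139, and 0 pairs passed. The count of such pairs changed when single tumors were left out, with 10 under 0.05 without Lov A19 and 0 without Lov AB10. Without Lov AB10 the 6 differences kept their sign. They were then 0.89 and 0.63 for Pfkl and Pfkm with Pfkp and 0.94 for Pfkfb2 with Pfkfb3. For Aldoa with Aldoc the value was -0.58, and for Slc16a1 with Slc16a3 and Slc16a7 it was -0.90 and -1.45. A pair without such a p was not shown to respond alike.

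A gene can be read by several probe sets, and the choice of 1 mattered for some. Of the 13 lower members, 9 had more than 1, and 17 of their 21 further probe sets differed in the same direction, 11 of them with a limma p under 0.05. The probe sets of Tpi1, Aldoa, Pgk1 and Ldhb differed by like amounts. For Pfkfb3 and Slc16a1 the dimmer probe set differed by 0.02. When all probe sets of each gene were averaged, 11 members were lower and Aldoc, at 0.57, was higher.

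**Figure D4:**
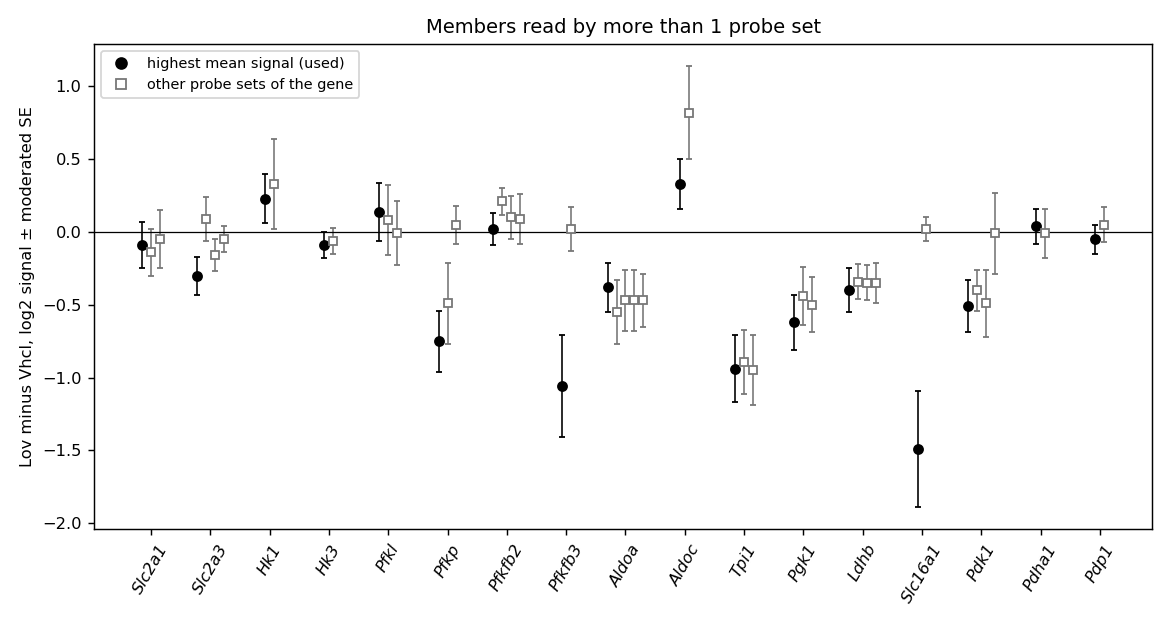
Lov minus Vhcl difference in log2 signal with moderated SE (y axis) for every probe set of the 17 members that have more than 1; filled circles are the probe sets used, open squares the others, from high to low signal. The sets of Tpi1 lie together between -0.95 and -0.89, while those of Slc16a1 lie at -1.49 and 0.02.

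The tumors of a group were not alike. Lov A19 lay below every Vhcl tumor in 2 of the 13 lower members, against 9 for A48, 10 for A50 and 12 each for A55 and AB10. Among Vhcl tumors, A59 was the highest in 8 of the 13 and AB11 the lowest in 9. AB11 lay above all Lov tumors in 3 only. Averaged over the 31 members, each centered on its mean over the 10 tumors, the log2 signal was 0.03 to 0.29 in Vhcl and -0.40 to 0.00 in Lov tumors, a description with no test. Lov AB10, lowest in this average, also had the lowest upper quartile of all arrays (6.68, against 6.74 to 6.93). With 1 tumor left out, 10 to 14 members were lower, among them 9 to 13 of the 13 named here, and 9 of the 13 kept a limma p under 0.05 in all 10 omissions. Those 9 were Hk2, Pfkp, Pfkfb3, Tpi1, Pgk1, Pgam1, Ldha, Slc16a1 and Pdk1. The exceptions were Slc2a3, Aldoa, Ldhb and Pdk3.

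Outside the 35 members, genes of neighboring pathways were called at a rate near that of all genes. The 55 measured further genes were 10 other isoforms of glycolytic enzymes, 8 hexose transporters, 8 genes of glycogen and glucose phosphate, 7 of the pentose phosphate pathway, 7 of mitochondrial pyruvate use, 6 of gluconeogenesis, 4 of monocarboxylate transport, 3 of the glycerol 3-phosphate shuttle and 2 of 2,3-bisphosphoglycerate. Of these, 2 were lower (3.64%) and 1 was higher (1.82%) at an unadjusted p under 0.05, with a median of -0.07. Over all genes the shares were 2.75% lower and 3.5% higher. The lower ones were listed under glycogen and glucose phosphate. Gys1, muscle glycogen synthase, differed by -0.53 ± 0.16 (SE, exact permutation p = 0.0238) and Pgm1, a phosphoglucomutase, by -0.70 ± 0.23 (SE, exact permutation p = 0.0238). The higher one, Bpgm, makes 2,3-bisphosphoglycerate and differed by 0.35 ± 0.12 (SE, exact permutation p = 0.0317). No gene of the other groups had a limma p under 0.05.

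Among 21 measured regulators of the pathway, 1 was lower and 1 was higher by the same rule. That is 4.76% each way, where 2.75% of all genes were lower and 3.5% were higher. Egln1, a prolyl hydroxylase that marks HIF-alpha for destruction and is itself induced by HIF-1, differed by -0.62 ± 0.21 (SE, exact permutation p = 0.0317). Egln3, of the same family and with a mean signal of 11.44, differed by 0.04 (exact permutation p = 0.73). Txnip, which restrains glucose uptake and is induced by glucose, read 11.13, 11.08, 11.66, 10.43 and 11.31 in the Vhcl tumors and 11.22, 12.63, 11.48, 11.75 and 12.09 in the Lov tumors. The Txnip difference was 0.71 ± 0.27 (SE, exact permutation p = 0.0635). Hif1a differed by -0.34 (exact permutation p = 0.167) and Myc by 0.07 (exact permutation p = 0.254). These are transcript levels, and the protein of Hif1a is controlled mainly after translation.

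Some hypoxia-inducible genes outside glycolysis were lower too, from a list of 12. Of the 12, 6 (50%) were lower at an unadjusted p under 0.05 and 0 higher, where 2.75% of all genes were lower and 3.5% higher. All 12 differences were below 0 (median -0.58). Ndrg1, a stress-induced gene, differed by -1.84 ± 0.41 (SE, exact permutation p = 0.0159), Bnip3, a mitophagy receptor, by -1.17 ± 0.27 (SE, exact permutation p = 0.0317), and Ak4, a mitochondrial adenylate kinase, by -1.65 ± 0.52 (SE, exact permutation p = 0.0476). The mean log2 signal of the list was 7.88, 8.10, 8.10, 8.76 and 7.92 in the Vhcl tumors and 8.48, 7.29, 7.01, 6.96 and 6.69 in the Lov tumors. Lov A19, high among Lov tumors for most glycolytic members, was here above all Vhcl tumors but A59. The part of hypoxia in the differences of the members was not tested.

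Markers of cell types were read beside the members. By the same rule 2.75% of all genes were lower and 3.5% higher, and in lists this short 1 call is already a large share. The mean log2 signal of the luminal epithelial markers was 10.17 to 10.62 in Vhcl and 10.03 to 10.32 in Lov tumors. Of 7 proliferation markers, 2 were lower (Mki67 and Top2a), with a mean of 8.55 to 9.34 in Vhcl and 8.16 to 8.84 in Lov tumors. Skeletal muscle, which is rich in Aldoa, Pfkm and Eno3, was present in some tumors of both groups. The 8 muscle markers averaged 4.39 to 8.55 in Vhcl and 4.51 to 8.33 in Lov tumors, high in Vhcl A54 and A59 and in Lov A55, and 0 of 8 had a limma p under 0.05. Of 7 salivary gland markers 2 were lower (Prol1 and Dcpp1), and their mean was 6.24 to 11.50 in Vhcl, highest in AB11 and next in A59, and 5.72 to 7.42 in Lov tumors. Without Vhcl AB11 and Vhcl A59, 10 members were lower, among them 9 of the 13, and the median difference over the members was -0.22, against -0.34 with all tumors. Of 9 leukocyte and macrophage markers 3 were lower and 1 was higher, of 6 neutrophil markers 1 was lower, and of 6 adipocyte markers 1 was lower. None of 8 fibroblast, 8 endothelial, 4 erythroid and 7 neural markers had a limma p under 0.05. The part of these cell types in the differences of the members was not tested.

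**Figure D5:**
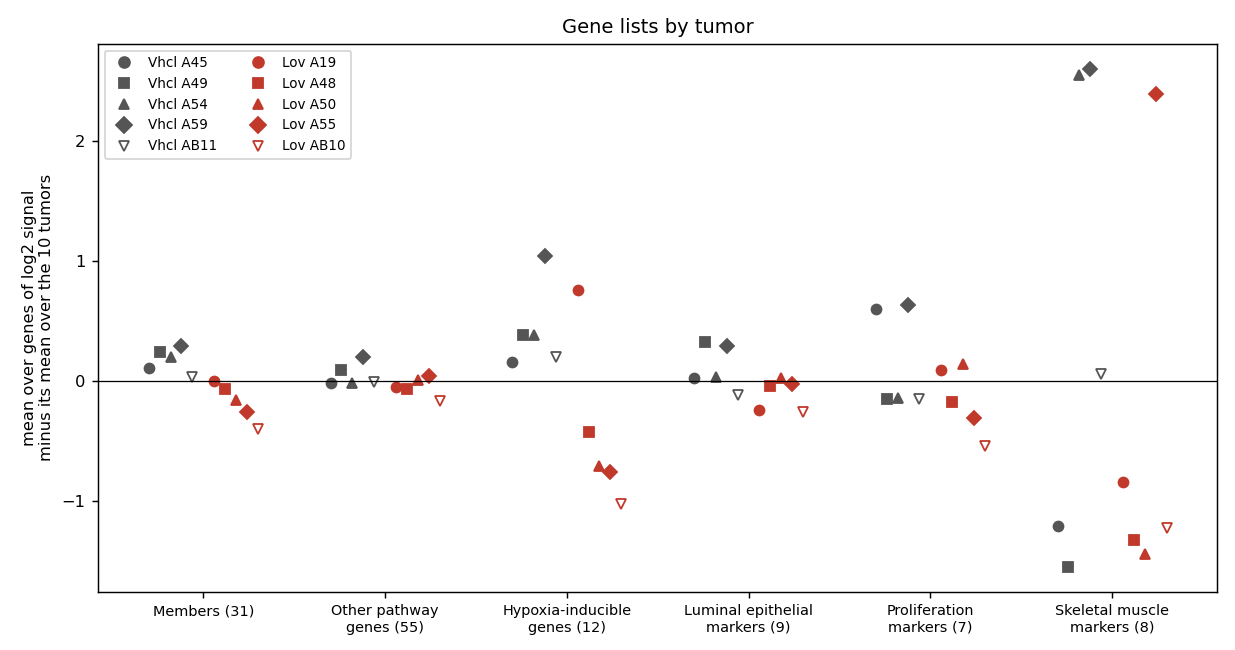
Mean over the genes of a list of the log2 signal centered on its mean over the 10 tumors (y axis) for each tumor and 6 lists; grey, Vhcl; red, Lov; numbers in brackets are genes measured. Members lie at 0.03 to 0.29 in Vhcl and -0.40 to 0.00 in Lov tumors, the hypoxia-inducible genes spread wider with Lov A19 at 0.76, and muscle markers are high in 3 tumors of both groups.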

How the data were processed

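RNA of 10 Tg-neu mammary tumors, 5 Vhcl and 5 Lov, had been read on 1 Affymetrix mouse array each. Per the submitters' processing notes, the authors used the affy package and Robust Multi-array Analysis (RMA) to obtain the log2 signals they deposited. Versions are not given in the sources used here. This summarizes the probes of a probe set and forces the arrays to 1 distribution, so a change in total RNA is not seen. The arrays give no read depth, and the number of tumors limits the precision. Groups were taken from the sample labels.

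The 64 array control probe sets were left out, and Lov minus Vhcl was fitted over the other 45037 with limma 3.58.1 in R 4.3.3 (lmFit and eBayes with default settings, prior degrees of freedom 3.61, 2-sided, Benjamini-Hochberg over all 45037). A single gene symbol was given for 34945 probe sets, several for 932 and none for 9160. Single symbols were found in the RefSeq table (GRCm38.p6) for 34741, which made 18193 genes. The brightest probe set annotated to a gene alone, by its mean over the arrays, stood for the gene. Lower or higher refers to an unadjusted p under 0.05. SEs are moderated. Gapdh and the isoform pairs were tested by exact permutation of tumors over all 252 assignments, 2-sided, on the within-tumor difference of log2 signals for pairs, whose SEs are pooled. Levels of different probe sets were not tested against each other, and a within-tumor ratio was compared only between the groups.

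The members and gene lists were chosen with earlier results of these data known, so their counts are descriptions beside those of all genes. By rule, all members were named, each tumor's value was given for members with an unadjusted p under 0.05 and for the brightest member of a family without one (Aldoc and Eno2 were added after their values were seen, and Fbp1 and Pdp1 are given by difference), further pathway genes and regulators were named at an unadjusted p under 0.05 (Eno3, Egln3, Hif1a and Myc were added), and at most 3 genes were named per other list (Krt19 was added). Motifs were counted in RefSeq promoter windows, 1 window per gene. The alternatives were other moderation, weights, normalizations, covariates, probe set choices and omissions of tumors. Leaving out tumors AB10 and AB11, or A59 and AB11, was chosen after seeing the data. The procedure was tested on simulated data. Isoform protein sequences were not analysed here.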

Additional observations from a re-analysis of the deposited data

Results flagged for a closer look

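In 62 groups of 5 tumors (31 members, 2 treatments), 6 values lay far from the other 4 of their group by Dixon's test, where about 1 in 20 groups, or 3.1, would be marked by chance. In the Vhcl group, Slc2a1 was at 9.41 in A45 (others 10.10 to 10.30), Aldoa at 11.85 in AB11 (others 12.43 to 12.58), Pdk2 at 7.03 in A59 (others 8.0 to 8.09) and Pfkfb2 at 5.92 in A59 (others 5.71 to 5.75). In the Lov group, A19 was apart for Aldoc at 12.80 (others 13.34 to 13.55) and for Eno2 at 4.50 (others 3.14 to 3.32). Without A45 the Slc2a1 difference was -0.25, and without A19 the Aldoc difference was 0.46, both then with an unadjusted p under 0.05 in limma.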

How the results depend on the processing

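Over 24 alternatives, 731 values of single members were recomputed, of which 672 stayed on their side of an unadjusted p of 0.05, 41 lost it, 18 gained it and 0 called differences changed sign. Of the 13 lower members, 4 kept their p in all 24, and 3 (Tpi1, Pgam1 and Ldha) in the 23 that gave them a value. Members lower numbered 9 to 14 in the alternatives with all 31 members, and 7 of 23 with probe sets whose name carries no suffix for shared transcripts, where fewer genes could be read. Members higher numbered 1 (Aldoc) with array weights, with the mean of all probe sets, with probe sets without that suffix, and without Lov A19 and Vhcl AB11. The isoform pairs with an exact permutation p under 0.05 numbered 1 with the mean of all probe sets (Aldoa with Aldoc), 2 in tumors without the AB prefix and 2 without Vhcl AB11 and Vhcl A59, and the cause was not tested. The last 2 settings leave the exact test fewer assignments, and its lowest p among the pairs was 0.0286 and 0.0179. In them Pfkl with Pfkp differed by 0.89 and 0.53, and Pfkfb2 with Pfkfb3 by 1.08 and 1.11. Leaving out 1 tumor gave 10 to 14 members lower, 0 to 1 higher (Aldoc, without Lov A19 or Vhcl A45) and 0 to 10 pairs (lowest without Lov AB10, highest without Lov A19). No member passed an adjusted p of 0.05 in limma in any setting (lowest 0.116, without Lov A19 and Vhcl AB11). No paired analysis was possible because the labels give tumor identifiers that the groups do not share. Signals near the array median limit what can be read for Slc2a3, Pfkfb4, Fbp1, Eno2, Slc16a3, Slc16a7 and Pdp1. The Lov means of Slc16a1 (5.32), Pfkfb3 (5.43) and Pdk4 (5.01) also lay close to it. This limits how exactly the size of these differences can be read.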
